A study of Mus musculus with 69 samples.

Results

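Slc40a1 encodes ferroportin, the only known exporter of iron from mammalian cells, and Tfrc encodes transferrin receptor 1, which takes up iron bound to transferrin. A cell's iron level is set by uptake through the receptor, storage in ferritin and release through ferroportin. The iron regulatory proteins bind stem-loops in the mRNAs: when iron is scarce they stabilise Tfrc mRNA and block the translation of the ferritin mRNAs and of the Slc40a1 mRNA that carries the stem-loop. Tfrc is also known for its high level in dividing cells and in the trophoblast of the placenta, where it receives maternal transferrin, and Slc40a1 is known for the iron release of placenta, gut and macrophages.

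The oligos of these 2 genes were chosen by their names, and the genes themselves were selected on measured values, since their changes in both cell lines and the 0 h difference were known when they were picked. Their values are therefore given as a description, with no test. On the time course arrays 4 of 22575 rows were theirs, 1 of Slc40a1 and 3 of Tfrc, and on the reference arrays 4 of 21446 rows, again 1 and 3. All 8 rows passed the filter on rows. The Slc40a1 oligo of the time course, number 12027, is annotated with Slc40a1 and Col5a2 and was named from the gene tables of the study. The separate Col5a2 oligo lay between -0.48 and 1.09 on the log2 scale over the 15 ZHBTc4 samples and between -0.49 and 0.57 over the 15 ZHTc6 samples. A row annotated with Tnk2 and Tfrc was left out. In RefSeq (GRCm38.p6) Slc40a1 lies at chr1:45908070-45926532 and Tfrc at chr16:32608896-32632794.

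For the region around the Tfrc start RefSeq windows of 300 bases were at hand for 2 annotated starts, and none for Slc40a1. They are shown because the mRNA level of Tfrc is what these arrays measure. Tfrc transcription is known to respond to hypoxia-inducible factors, whose sites can hold the core letters ACGTG, the only form of the core searched. The following windows of 29 bases on the plus strand of GRCm38.p6 carry that core and the letters TATAA, marked in capitals.
Tfrc, chr16:32608882-32608910: ctcggtaggtgtACGTGcggaaggaagtg
Tfrc, chr16:32608938-32608966: gtggggccgagcTATAAgctttgggtggg
Searched on both strands, ACGTG was held by 19.6% and TATAA by 24.9% of the 32851 windows of the same length. The octamer ATGCAAAT that Oct3/4 binds, or its reverse complement ATTTGCAT, was held by 1.74% of them and was not in those of Tfrc. These are matches of letters only. The paper states that Oct3/4 also binds variants of the octamer. Those variants, and sequence outside the windows, were not searched, so nothing is read about Oct3/4 sites of Tfrc.

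Expression was measured in mouse ES cells that carry a Tet-regulated transgene of Pou5f1, the gene of the transcription factor Oct3/4. ZHTc6 cells (Pou5f1+/-) overexpress it after Tet is withdrawn, and ZHBTc4 cells, in which both alleles are disrupted, lose it after Tet is added. Tet, the line and the direction of the Oct3/4 change thus go together, in the time courses and at 0 h. Their separate parts were not tested and cannot be told apart on these arrays. Both lines were grown without feeder cells and with LIF, and each is 1 clone. For each line, 3 samples at 24, 48, 72, 96 and 120 h were set against RNA of their own line at 0 h in dye-swapped pairs, giving 60 arrays and 30 samples. On 6 further arrays 3 samples of each line at 0 h, ZHBTc4 without and ZHTc6 with Tet by the study's culture scheme, were compared with Universal Mouse Reference RNA, and on 3 arrays EB5 ES cells were compared with the same reference after siGFP or after siTcl1 at 1 of 2 doses. The study's methods call the samples of a time point independent, but neither they nor the labels say whether these were separate cultures, so p-values measure the spread between these samples. Fewer cells that express a gene and less RNA per cell cannot be told apart on these arrays.

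All values below are log2 ratios, and a value of 1 is a doubling. The values of a dye-swapped pair correlated across oligos with r between 0.0535 and 0.835 (median 0.545), and the lowest value belonged to ZHBTc4 replicate 1 at 24 h. Pou5f1 was below 0 h in all 15 ZHBTc4 samples, from -3.04 to -1.88. In ZHTc6 it was above 0 h at 120 h (0.63, 0.65 and 0.79). At 24 h, however, it was -0.22, -0.05 and 0.63, and at 48 h -0.03, 0.10 and 0.43. Replicate 3 was at -0.07 at 72 h and -0.27 at 96 h, while replicates 1 and 2 were at 1.30 and 1.56 and at 0.49 and 0.90. In ZHBTc4 all 7 measured ES cell markers fell over the 5 days and 5 of 7 trophoblast markers rose and 1 fell, led by Rhox6 (4.03), Gata3 (3.76) and Esx1 (2.84). In ZHTc6 all 3 measured mesoderm markers rose (Mesp1 2.05, Gsc 1.63, Lhx1 1.21), 6 of 7 ES cell markers fell while Pou5f1 rose, and 2 of 7 trophoblast markers rose and 3 fell. Of all 20665 genes and unnamed oligos limma called 23.8% higher and 22.9% lower in ZHBTc4 over the 5 days. In ZHTc6 it called 29.4% higher, a share near the 2 of 7 trophoblast markers, and 20.5% lower. Of the other lists, macrophage markers were at 0.11 to 0.30 in ZHBTc4 and 0.08 to 0.20 in ZHTc6 (2 of 7 measured), and primitive and visceral endoderm markers at -1.60 to 0.47 and -0.70 to 0.40 (5 of 15 measured). No erythroid or fibroblast marker was named on the time course arrays. The part of this change in cell type in the values of Slc40a1 and Tfrc was not tested.

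Slc40a1 was above its 0 h level at every time point after Tet was added to ZHBTc4 cells. At 24 h the 3 replicates were at 2.41, 1.61 and 1.86 (mean 1.96 ± 0.41, SD, n = 3), a 3.9-fold increase that does not rest on replicate 1, whose dyes correlated least. At 48 h they were at 1.48, 1.84 and 1.58, which overlaps the 24 h values. The level then went up by 0.98 ± 0.10 between 48 and 72 h, in 3 of 3 replicates, to 2.35, 2.91 and 2.58. It reached 3.08, 3.31 and 2.98 at 96 h and 3.59, 3.13 and 3.36 at 120 h, a mean of 3.36 ± 0.23 or 10.2-fold, and the last step of 0.23 ± 0.37 lay within the spread. The ferroportin mRNA thus had an early step in the first 24 h, a pause, and a second climb between 48 and 96 h. At 24 h only 20 of 20665 genes and unnamed oligos had a higher mean than Slc40a1 in ZHBTc4, and at 120 h 50 did.

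In ZHTc6 cells Slc40a1 ran the other way for 48 h. The 3 replicates were at -1.88, -1.33 and -1.02 at 24 h (mean -1.41 ± 0.44, 2.66-fold lower) and at -1.33, -0.91 and -1.48 at 48 h. They were back near the 0 h level at 72 h, at -0.16, -0.24 and -0.14, after a step of 1.06 ± 0.35 that was upward in 3 of 3 replicates. At 96 h they stood above it, at 0.56, 0.34 and 0.45, and at 120 h they were at -0.01, -0.15 and -0.24. The dip was thus transient, and as change from 0 h no ZHTc6 sample came near the lowest ZHBTc4 sample, which was at 1.48. At 24 h 928 of 20665 genes and unnamed oligos (4.49%) had a lower mean than Slc40a1 in ZHTc6, and over the 5 days 1726 (8.35%) did, so that its dip was less extreme among them than its climb in ZHBTc4.

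**Figure D1:**
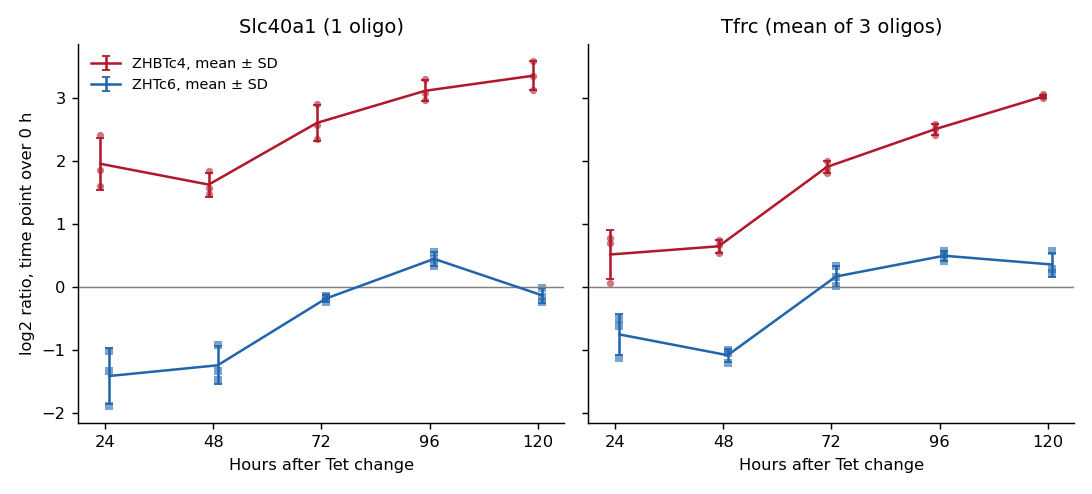
Log2 ratio of each time point over 0 h (y axis) against hours after the change in Tet (x axis) for Slc40a1 and for the mean of the Tfrc oligos; points are the 3 replicates of ZHBTc4 (red circles) and ZHTc6 (blue squares), lines and bars are mean ± SD. Slc40a1 ended at 3.36 and Tfrc at 3.03 in ZHBTc4, while both dipped in ZHTc6 at 24 and 48 h and returned by 72 h.

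The change of Slc40a1 from 0 h differed between the 2 lines at all 5 time points, with no overlap of replicates. The means of ZHTc6 lay below those of ZHBTc4 by 3.37 at 24 h (ZHTc6 minus ZHBTc4 was -3.37), and the differences at 48, 72, 96 and 120 h were -2.87, -2.79, -2.67 and -3.49. Differences in change between the lines were common on these arrays. Over the 5 days the change of 22.3% of 20665 genes and unnamed oligos was called higher, and of 19.2% lower, in ZHTc6 than in ZHBTc4 (limma, adjusted p below 0.05). The Slc40a1 difference of the 5-day means, -3.04, was exceeded in that direction by 9 of them. This was among the values that chose the gene, and nothing is read from it.

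In order of change from the 0 h RNA of its own line, Slc40a1 ran from ZHBTc4 at 120 h (3.36) over 96 h (3.12), 72 h (2.61), 24 h (1.96) and 48 h (1.63) to ZHTc6 at 96 h (0.45), 120 h (-0.13), 72 h (-0.18), 48 h (-1.24) and 24 h (-1.41). This is not an order of level between the lines, since at 0 h the ZHTc6 mean was higher by 3.08 on the reference arrays. The replicates of neighbours overlapped between 120 and 96 h, 72 and 24 h, and 24 and 48 h of ZHBTc4, and between 120 and 72 h and between 48 and 24 h of ZHTc6.

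Tfrc also went up after Tet was added to ZHBTc4, and most of its climb came after 48 h. The mean of its 3 oligos was at 0.78, 0.71 and 0.06 in the 3 replicates at 24 h, and at 0.67, 0.75 and 0.55 at 48 h. These early values were small, and at 24 h replicate 3 stood apart near 0. At 72 h it was at 1.90, 2.01 and 1.82, after a step of 1.26 ± 0.02. At 96 h it was at 2.59, 2.52 and 2.41, and at 120 h at 3.07, 3.01 and 3.03 (mean 3.03 ± 0.03, n = 3, 8.19-fold). Every step from 48 h on was upward in 3 of 3 replicates, while the last step of Slc40a1 lay within its spread. At 120 h 85 of 20665 genes and unnamed oligos had a higher mean than Tfrc in ZHBTc4, and at 24 h 1492 did.

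The 3 Tfrc oligos gave the same rise in ZHBTc4. At 120 h oligo 8095 was at 3.01, 3.69 and 3.40, oligo 9801 at 3.01, 2.70 and 2.61, and oligo 10260 at 3.18, 2.63 and 3.06. Each oligo went up by 1.20 to 1.33 between 48 and 72 h. At 24 h they were less alike: oligo 10260 was at 1.03, 0.77 and -0.41, and replicate 3 was the only ZHBTc4 sample below 0 on any Tfrc oligo after averaging the dyes. For oligo 8095 the dyes of replicate 2 at 24 h disagreed, with -0.47 where the time point was in Cy5 and 1.69 where it was in Cy3, a gap of 2.17. For oligo 9801 the largest such gap over all 30 samples was 0.26.

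In ZHTc6 the oligos of Tfrc did not give 1 picture. Oligo 9801 was at -1.86, -1.57 and -1.21 at 24 h and at -1.72, -1.71 and -1.87 at 48 h, 3.4-fold below 0 h at the later time, and was back at -0.30, -0.45 and -0.30 at 72 h. Oligo 10260 was at -1.64, -0.87 and -0.10 at 24 h, at -1.16, -1.16 and -1.50 at 48 h and at 0.31, 0.28 and -0.05 at 72 h. Both dipped and returned at the same times as Slc40a1. Oligo 8095 was at 0.15, 0.58 and -0.22 at 24 h and at -0.12, -0.29 and -0.23 at 48 h, so that the early dip was slight or missing, and it ended at 1.32, 0.66 and 0.87 at 120 h, above 0 h. The step between 48 and 72 h was upward on all 3 oligos in 3 of 3 replicates (0.89, 1.41 and 1.45 for oligos 8095, 9801 and 10260). The 5-day means in ZHTc6 were 0.50, -0.70 and -0.29 on the 3 oligos, so their joint mean of -0.16 has no direction shared by all of them. Means lower than that of Tfrc were found for 2859 of 20665 genes and unnamed oligos (13.8%) at 24 h and for 4890 (23.7%) over the 5 days.

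**Figure D2:**
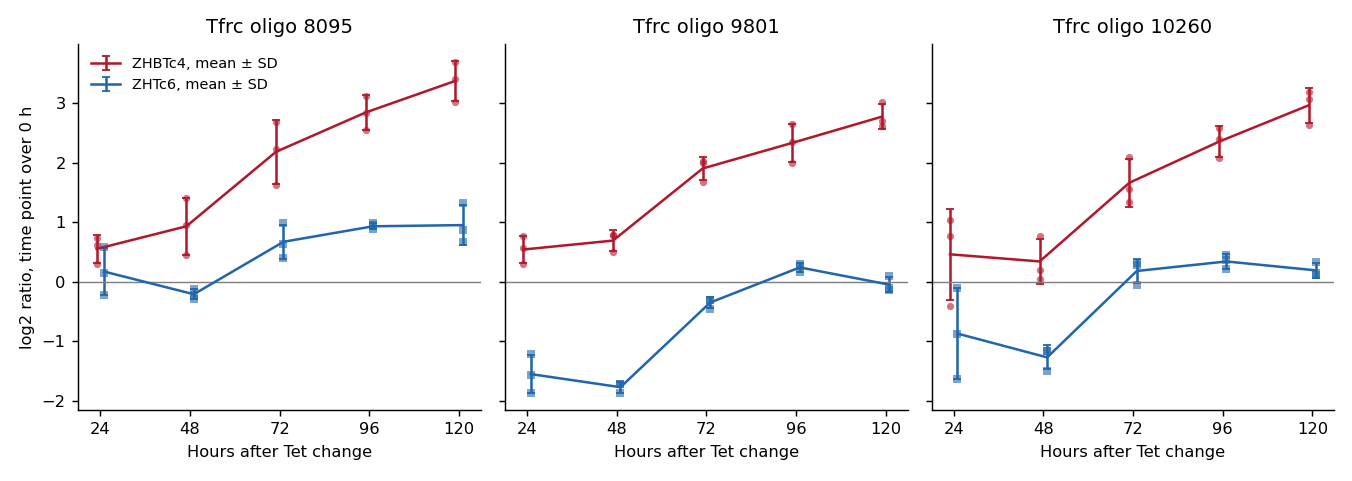
Log2 ratio over 0 h (y axis) by hours after the change in Tet (x axis) for each Tfrc oligo; points are replicates of ZHBTc4 (red circles) and ZHTc6 (blue squares), lines and bars are mean ± SD. The rise in ZHBTc4 to between 2.77 and 3.37 appears on each oligo, while the ZHTc6 dip at 48 h is -0.21 on oligo 8095, -1.77 on oligo 9801 and -1.27 on oligo 10260.

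For the mean of the Tfrc oligos, ZHTc6 minus ZHBTc4 was -1.27 at 24 h and -1.74 at 48 h, and it was -1.74, -2.0 and -2.67 at 72, 96 and 120 h. The replicates did not overlap at any time point for this mean or for oligo 9801. At 24 h they overlapped on oligos 8095 and 10260. How many of all rows show no overlap was not counted. Over the 5 days the change of 22.3% of them was called higher in ZHTc6 and of 19.2% lower (limma). In order of change from 0 h, Tfrc ran from ZHBTc4 at 120 h (3.03) over 96 h (2.51), 72 h (1.91), 48 h (0.65) and 24 h (0.52) to ZHTc6 at 96 h (0.50), 120 h (0.36), 72 h (0.17), 24 h (-0.75) and 48 h (-1.08). The replicates of neighbours overlapped from ZHBTc4 at 48 h down to ZHTc6 at 72 h and between the lowest pair. The 3 highest changes were each separate from the next.

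Set beside each other, the export and the uptake gene took correlated courses. Their direction differed on Tfrc oligo 8095 in ZHTc6, with a 5-day mean of 0.50 beside -0.50 for Slc40a1. Over the 30 samples of both lines the Slc40a1 oligo correlated with Tfrc oligos 8095, 9801 and 10260 at r = 0.843, 0.965 and 0.9. Within ZHBTc4 (15 samples) the values were 0.914, 0.914 and 0.88, and within ZHTc6 (15 samples) 0.768, 0.966 and 0.915. The samples of a line share their 0 h RNA by number and the oligos share arrays, so these are descriptions. Slc40a1 led in size at 24 h in ZHBTc4, where its lowest replicate (1.61) was above the highest Tfrc replicate (0.78), both as changes from 0 h. The genes with a current symbol whose values were most like those of Slc40a1 over the 30 samples were Fermt2 (r = 0.982), Rragd (0.982), Ctdspl (0.981), Nabp1 (0.979) and Papola (0.977). For Tfrc oligo 9801 they were Ugp2 (0.987), Purb (0.978), Adcy7 (0.976), Spg20 (0.976) and Cers2 (0.975). For oligo 10260 they were Maoa (0.96), Hbegf (0.96), Prrc2b (0.951), Pcyox1 (0.948) and Ctsb (0.947), and for oligo 8095 Afap1l2 (0.966), Prkcd (0.961), Fuca2 (0.96), Pkp2 (0.958) and Tor1aip1 (0.957). No gene was on more than 1 of these lists.

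Before the change in Tet the lines already differed in Slc40a1. Against the reference RNA the ZHBTc4 0 h samples were at -1.73, -2.19 and -0.70 (mean -1.54 ± 0.77, n = 3), and the ZHTc6 0 h samples were at 1.36, 1.77 and 1.5 (mean 1.54 ± 0.21, n = 3). The groups did not overlap, and the ZHTc6 mean was higher by 3.08, or 8.47-fold. ZHBTc4 replicate 3 stood above the other two, and without it the difference was 3.50. By limma 4.6% of 18443 genes and unnamed oligos were called higher and 4.02% lower in ZHTc6 at 0 h, which counts calls and not all rows that differ. The 0 h arrays of ZHBTc4 correlated with each other at 0.804, 0.809 and 0.931, and those of ZHTc6 at 0.955 to 0.966. A larger positive difference than that of Slc40a1, which again was among the values that chose it, was found for 4 genes or unnamed oligos. The Slc40a1 oligo of these arrays, number 4948, is annotated with this gene alone. The Col5a2 oligo was between -2.12 and -1.79 in ZHBTc4 and between -2.01 and -1.72 in ZHTc6. At 0 h 1 of 8 ES cell markers was called lower in ZHTc6 (range -0.83 to 0.54), 1 of 12 trophoblast markers higher (-0.74 to 0.64) and 1 of 9 endoderm markers lower (-1.14 to 2.28). At an unadjusted p under 0.05 it was 4, 5 and 4 of them. The highest endoderm value was that of Ttr, which was not called. The 6 erythroid markers differed by -0.21 to 0.37, the 4 fibroblast markers by -1.07 to 0.72, the 4 mesoderm markers by -0.62 to 0.54 and the 2 macrophage markers by 0.50 to 0.56. By limma 0 genes of these last 4 lists were called, and at an unadjusted p under 0.05 it was 0 erythroid, 2 fibroblast, 2 mesoderm and 2 macrophage genes. The part of these differences, or of the Tet given to ZHTc6 alone at 0 h, in the 0 h value of Slc40a1 was not tested. The rises and falls of the time course are relative to these unequal starting points, and since the arrays differ in their oligos the 2 scales were not added.

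Tfrc did not separate the lines at 0 h. Its 3 oligos were above the reference in all but 1 value. Oligo 18714 was at 1.03, 1.09 and 1.44 in ZHBTc4 and at 1.38, 1.88 and 1.56 in ZHTc6. Oligo 10164 was at 0.25, 0.08 and 0.83 against 0.30, 0.34 and 0.61. Oligo 9738 was at -0.38, 1.10 and 1.39 against 0.91, 1.20 and 1.07, with ZHBTc4 replicate 1 apart from the rest. The groups overlapped on each oligo, and the mean difference was 0.27, which became 0.04 without ZHBTc4 replicate 1 and 0.50 without ZHBTc4 replicate 3.

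**Figure D3:**
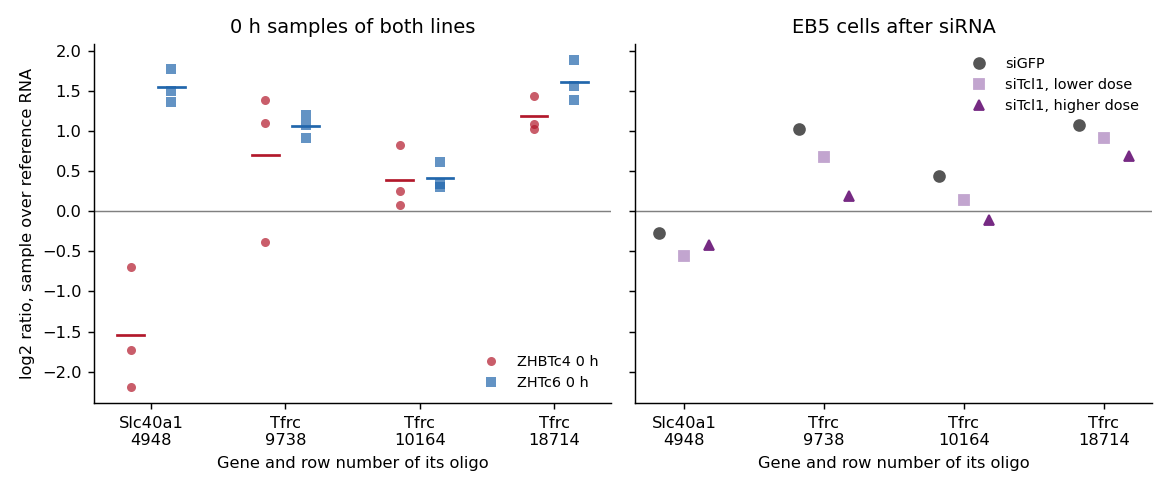
Log2 ratio of each sample over the reference RNA (y axis) for the Slc40a1 oligo and the 3 Tfrc oligos of the reference arrays (x axis); left, 3 samples of each line at 0 h with bars at their means, right, 1 array for each siRNA treatment of EB5 cells. Slc40a1 separates the lines (means -1.54 and 1.54), and each Tfrc oligo is highest after siGFP and lowest after the higher dose of siTcl1.

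The siTcl1 arrays ask whether loss of Tcl1, a coactivator of the kinase Akt, changes the same genes. Tcl1 itself was at 4.29 after siGFP, 2.56 after siTcl1 at 560 uM and 2.09 at 1120 uM, as the doses are labelled (the study's tables give other amounts, in nM, so the unit is unsettled), differences of -1.73 and -2.20 (3.32-fold and 4.58-fold). There was 1 array for each treatment, so no difference has a replicate check. Tfrc was lower on all 3 oligos, and lower at the higher than at the lower dose. Oligo 9738 went from 1.03 to 0.68 and 0.19, oligo 10164 from 0.44 to 0.14 and -0.11, and oligo 18714 from 1.08 to 0.91 and 0.69. Their mean differed from siGFP by -0.27 and -0.59 (1.21-fold and 1.51-fold). Of 18443 genes and unnamed oligos, 17.3% were lower than Tfrc at the lower dose and 6.87% at the higher. Slc40a1 was at -0.27 after siGFP, -0.56 at the lower and -0.42 at the higher dose, differences of -0.28 and -0.15 that do not follow the dose. Neither gene passed 1.5-fold at both doses, as 3.78% of all rows did upward and 1.78% downward.

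To see whether Slc40a1 and Tfrc moved with the rest of iron metabolism, 65 other genes in 7 lists were looked up, and 21 had a named oligo on the time course arrays. Over the 5 days in ZHBTc4 9 of these 21 rose, 8 fell and 4 did not pass the test, beside 23.8% of all 20665 genes and unnamed oligos called higher and 22.9% lower. The median of the 21 was 0.11, beside 0.00 for all. In ZHTc6 6 rose and 6 fell, beside 29.4% and 20.5%, with a median of -0.10 beside 0.07. Without ZHTc6 replicate 1 the 12 calls became 7. These calls had no common direction in either line. With names from the annotation alone the calls were 6 higher and 6 lower in ZHBTc4, but 6 higher and 1 lower in ZHTc6. Names on these arrays came in part from gene tables that the study drew up from these samples, so the share of list genes called is not independent of the outcome.

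Among the uptake genes Slc11a2, the transporter DMT1 that moves iron out of endosomes after uptake by the transferrin receptor, took a course like that of Slc40a1 and Tfrc. It was at 0.87, 1.32 and 0.68 at 24 h and at 2.22, 2.50 and 2.44 at 120 h in ZHBTc4, and at -0.94, -0.90 and -0.20 at 24 h and -0.32, -0.28 and -0.32 at 120 h in ZHTc6. It rose by 1.74 ± 0.06 (SE, adjusted p = 6.83e-07, limma) over the 5 days in ZHBTc4, fell by 0.38 (adjusted p = 0.00254) in ZHTc6, where it was at -0.17 and not called in Cy5 alone, and differed between the lines by -2.11 (adjusted p = 6.37e-06). Slc39a14, the importer ZIP14, fell in both lines over the 5 days (-0.57 in ZHBTc4 and -0.97 in ZHTc6). In ZHBTc4 it went from -1.48 at 48 h to 0.67 at 120 h, while in ZHTc6 it was at -1.47 at 120 h. Slc39a8 rose by 0.25 in ZHBTc4 and by 0.55 in ZHTc6, and Trf, which encodes transferrin, the ligand of the receptor, fell by 0.63 in ZHBTc4. Of the 5 uptake and transport genes measured, 2 rose and 3 fell in ZHBTc4 and 1 rose and 2 fell in ZHTc6.

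The storage genes went separate ways. Fth1, the ferritin heavy chain, which has near-identical copies in the genome, was at 1.21, 1.17 and 1.11 at 24 h and at -1.06, -0.96 and -1.23 at 120 h in ZHBTc4, so that it was high when Slc40a1 first rose and low when both Slc40a1 and Tfrc were highest. In ZHTc6 it was at -0.90, -0.95 and -0.73 at 120 h. Ncoa4, the receptor that delivers ferritin to lysosomes, was at -1.64, -1.76 and -2.16 at 48 h in ZHTc6 at -0.43, -0.53 and -0.49 at 72 h, when Slc40a1 was already closer to 0 h, and at 0.06, -0.02 and 0.02 at 96 h. Its 5-day means of 0.46 in ZHBTc4 and -0.81 in ZHTc6 differed by -1.27 (adjusted p = 0.000948, limma). Pcbp2, an iron chaperone, fell by 1.01 in ZHBTc4. Ftl1, the ferritin light chain, rose in both lines, by 0.49 in ZHBTc4 and by 0.38 in ZHTc6. Of the 4 storage genes 2 rose and 1 fell in ZHBTc4, and 1 rose and 2 fell in ZHTc6.

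Among the genes of heme breakdown, Hmox1, the heme oxygenase that frees iron from heme, rose by 1.19 (adjusted p = 6.56e-06, limma) in ZHBTc4, from 0.34 at 24 h to 1.67 at 120 h. Its change from 0 h was lower in ZHTc6 than in ZHBTc4 by 1.32 in the test of the difference (-1.32, adjusted p = 5.13e-05, limma). Blvra, a biliverdin reductase, rose by 0.68 in ZHBTc4 and by 0.19 in ZHTc6. Of the 4 regulators measured, Fbxl5, which marks iron regulatory protein 2 for degradation, rose by 0.57, Neo1, a coreceptor in hepcidin control, fell by 0.85, and Aco1, which encodes iron regulatory protein 1, stood at 1.46 at 120 h in ZHBTc4 (adjusted p = 8.18e-06, limma). Over the 5 days in ZHTc6 the 4 regulators lay between -0.12 and 0.16 and 0 passed limma's test (1 at an unadjusted p under 0.05). The iron-sulfur assembly gene Hspa9 fell in both lines, by 0.86 in ZHBTc4 and by 0.57 in ZHTc6. In ZHTc6 the iron-sulfur genes Ciao3 (0.28) and Fdx1 (0.19) rose and Fth1 (-0.24) fell by small amounts. These 3 calls depended on single samples and dyes: Fdx1 was not called without any 1 of the ZHTc6 replicates (0.12 without replicate 1), Fth1 not without replicate 1 or 2 or in Cy5 alone (-0.15), and Ciao3 not without replicate 1 or 3 or in Cy3 alone (0.14). Heph, a ferroxidase and the 1 measured gene of the export list, was at -0.16 in ZHBTc4 and 0.31 in ZHTc6, which did not pass the test, while its difference between the lines of 0.48 did (adjusted p = 0.0463, limma). It was not called with centred arrays (0.45), in Cy3 alone (0.44), without the filter on rows or without any 1 of the ZHTc6 replicates (0.41 to 0.53), and was 0.29 without ZHBTc4 replicate 2. Ppox, the 1 measured gene of heme synthesis, fell by 0.32 in ZHBTc4 and rose by 0.15 in ZHTc6. Its rise in ZHTc6 was not called without ZHTc6 replicate 1 or without replicate 3.

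**Figure D4:**
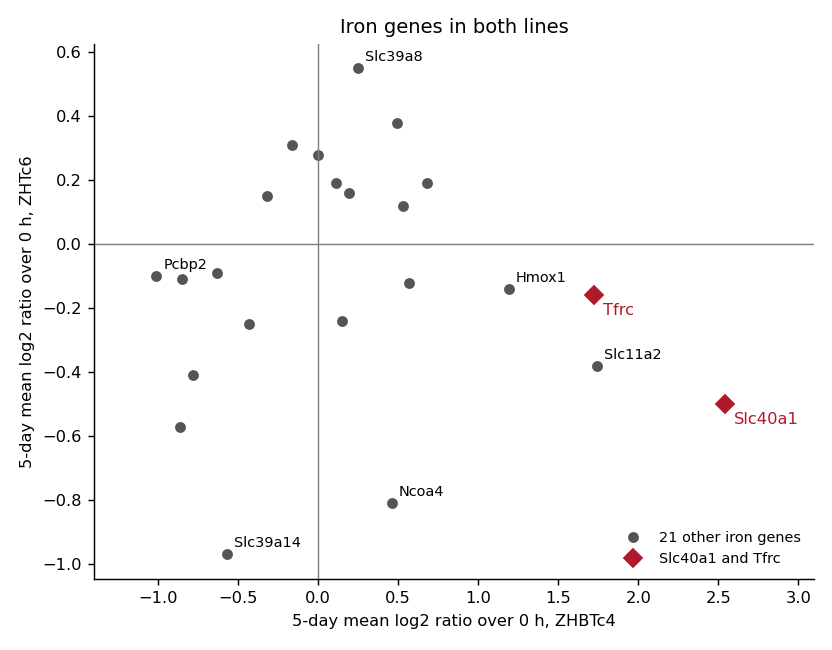
5-day mean log2 ratio over 0 h in ZHBTc4 (x axis) against ZHTc6 (y axis) for the 21 other iron genes (grey circles, 6 named) and for Slc40a1 and Tfrc (red diamonds). Slc40a1 (2.54 and -0.50) and Slc11a2 (1.74 and -0.38) lie far to the right and below 0, and Tfrc (1.72 and -0.16) is the mean of oligos that differ in direction in ZHTc6.

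By time point, 3 of the 21 were higher and 3 lower at 24 h in ZHBTc4, beside 6.79% and 7.43% of all rows tested, and 6 higher and 6 lower in ZHTc6, beside 31.2% and 24.3%. Without ZHBTc4 replicate 2 the 6 calls in ZHBTc4 became 3. At 24 h Slc11a2 (0.96), Fth1 (1.16) and Blvra (0.61) were the genes called higher in ZHBTc4, and Slc39a14 (-1.15), Hspa9 (-0.73) and Neo1 (-0.67) those called lower. In ZHTc6 the genes called lower at 24 h included Ncoa4 (-1.34), Slc39a14 (-1.12), Fbxl5 (-1.04) and Hspa9 (-1.04), and those called higher included Ciao3 (0.72), Blvra (0.69) and Ftl1 (0.65). At 120 h 9 were higher and 8 lower in ZHBTc4, beside 22.5% and 23.3%, and 4 higher and 7 lower in ZHTc6, beside 15.7% and 13.2%. The 11 calls in ZHTc6 at 120 h became 3, 5 and 3 without replicates 1, 2 and 3 of that line. Over the 5 days the change from 0 h was called higher in ZHTc6 than in ZHBTc4 for 9 of 21 and lower for 8. These counts of the test of the line difference stood beside 22.3% and 19.2% of all, with a median of 0.08 beside 0.07 for all. Without ZHTc6 replicate 2 these 17 calls became 11, and with names from the annotation alone there were 8 higher and 3 lower.

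At 0 h, where 42 of the 65 genes were measured, 3 were higher and 4 lower in ZHTc6 than in ZHBTc4, beside 4.6% and 4.02% of all 18443 genes and unnamed oligos. The higher genes were Fth1 by 0.87 (adjusted p = 0.0131, limma), Slc39a14 by 0.61 and Glrx5, a glutaredoxin of iron-sulfur assembly, by 0.46, and the lower genes were Hspa9 (-0.70), Iscu, the scaffold of iron-sulfur assembly (-0.61), Uros, an enzyme of heme synthesis (-0.48), and Neo1 (-0.42). By limma 0 genes were called when ZHBTc4 replicate 1 or 2 or any 1 of the ZHTc6 replicates was left out (7 to 11 at an unadjusted p under 0.05), and without ZHBTc4 replicate 3 there were 13 calls. After siTcl1 Hephl1, a ferroxidase, was past 1.5-fold upward at both doses (1.45 and 1.74 above siGFP) and Cp, the ferroxidase ceruloplasmin that works with ferroportin, downward (-2.29 and -1.18), and the other 40 measured genes were not. Of all 18443 genes and unnamed oligos 3.78% were past it upward and 1.78% downward, and each treatment had 1 array.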

How the data were processed

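Per the submitters' processing notes the authors ran Agilent Feature Extraction, and each deposited value is the log10 of a spot's Cy5 to Cy3 ratio, already background-corrected and dye-normalized (settings not given in the sources used here) and bounded at -2 and 2. No intensities were used, so weak spots are not known as such. Precision is limited by how many arrays there are. Values were turned to log2 and oriented as time point over 0 h, or sample over reference, and dye pairs and oligos of a gene were averaged. A 120 h pair of ZHTc6, labelled number 2 but set against 0 h number 1, was taken as replicate 1. The filter on rows took out 216 whose number is lower than any known oligo's, and those held at a bound in over 0.5 of arrays (211 on the time course, 163 on the reference arrays).

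Rows were named from the platform annotation where it gives 1 gene (4262 of the time course rows, with 6822 that have several and 11491 that have none; 11813, 559 and 9074 on the reference arrays) and, on the time course arrays, from the gene tables of the study, which favour genes that changed. limma 3.58.1 (R 4.3.3; lmFit, eBayes, Benjamini-Hochberg over all 20665 or 18443 genes and unnamed oligos, adjusted p below 0.05) tested the mean of the 5 days, 24 h, 120 h, the line difference and 0 h, with both lines in 1 fit, and was tested on simulated data. Tables and plots were made with Python 3.11.15, pandas 2.3.3, numpy 2.4.6 and matplotlib 3.10.9. No fold change or p from the authors' tables was used.

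The genes and lists were chosen with earlier results of these data known. Named list genes are those past the test, up to 10 per comparison, with up to 3 markers per list and the 5 most similar genes per oligo; 1 list gene that passed is counted but not reported here by name. Alternatives were centring, scaling, each dye, each oligo, leaving out replicates, names, filter, the odd pair, the fold and a replicate block.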

Additional observations from a re-analysis of the deposited data

Results flagged for a closer look

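Slc40a1 lay on opposite sides of 0 h in the lines at 4 of 5 time points, with every ZHBTc4 replicate above and every ZHTc6 replicate below it after averaging the dyes. Here ZHTc6 minus ZHBTc4 was -3.37, -2.87, -2.79 and -3.49 at 24, 48, 72 and 120 h. At 72 and 120 h the ZHTc6 values, from -0.24 to -0.01, were close to 0 h, and replicate 1 at 120 h was at 0.10 with the time point in Cy5. For the mean of the Tfrc oligos the same held at 24 h (-1.27) and 48 h (-1.74), though oligo 8095 had replicates of both signs in ZHTc6 at 24 h. These differences were not tested, since the genes were chosen with them known. Over the 5 days 3 other iron genes were called in opposite directions in the lines and passed limma's test of the difference: Slc11a2 (-2.11, adjusted p = 6.37e-06, with its fall in ZHTc6 not called in Cy5 alone), Ncoa4 (-1.27, adjusted p = 0.000948) and Ppox, the protoporphyrinogen oxidase of heme synthesis (0.47, adjusted p = 0.00166). The rise of Ppox in ZHTc6 (0.15, adjusted p = 0.0393, limma) was not called without ZHTc6 replicate 1 or without replicate 3. How many of all 20665 genes and unnamed oligos were called in opposite directions was not counted, so these 3 have no share beside them. Over the 5 days limma called 23.8% of all higher and 22.9% lower in ZHBTc4, and 29.4% and 20.5% in ZHTc6. With 3 replicates a group, no search for outlying samples was made.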

How the results depend on the processing

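The rise of both genes in ZHBTc4 and the 0 h difference of Slc40a1 (2.76 to 3.50 with 1 sample left out) kept their direction under each alternative. Scaled arrays gave 5-day means of 2.36 and -0.35 for Slc40a1 and 1.55 and -0.01 for Tfrc in ZHBTc4 and ZHTc6. Slc40a1 in ZHTc6 was -0.39 with the time point in Cy5 alone and -0.62 in Cy3 alone. Tfrc in ZHBTc4 was 1.97 on oligo 8095 and 1.55 on oligo 10260. In ZHTc6 it was -0.21 with the odd 120 h pair as labelled, and -0.70 on oligo 9801, -0.29 on oligo 10260 and, with the sign turned, 0.50 on oligo 8095. Counts of iron genes changed with names from the annotation alone, where fewer genes are named: 7 in place of 12 over the 5 days in ZHTc6 (6 higher, 1 lower), 2 in place of 6 at 24 h and 11 in place of 17 at 120 h in ZHBTc4, 7 in place of 11 at 120 h in ZHTc6 and 11 in place of 17 for the line difference (8 higher, 3 lower), which was also 11 in Cy3 alone. The odd pair as labelled left 4 of 11 at 120 h in ZHTc6. Deviations from the group means of same-numbered samples correlated at 0.0979 to 0.511 in ZHBTc4 (median 0.332, beside -0.161 for other numbers). In ZHTc6 they correlated at -0.199 to 0.393 (median 0.143, beside -0.0504). Not all were over 0.1, so the main fits had no term for the numbers, which share 0 h RNA. The steps between time points and the 5-day mean of each replicate were still formed within a number. With all time points in 1 fit 13 genes were called at 24 h in ZHBTc4, both with the replicate block and without it, and the block moved no other count it was run on by over 1.5 times. At 0 h 4 genes were called with centred and 3 with scaled arrays, and Fdx1 in ZHTc6 turned to -0.02 in Cy3 alone. The cause of these changes was not tested. With 1 sample left out, counts ranged from 7 to 14 over the 5 days in ZHTc6, 3 to 6 at 24 h in ZHBTc4, 3 to 11 at 120 h in ZHTc6, 11 to 16 for the line difference and 0 to 13 at 0 h. No paired analysis was possible at 0 h because the numbers belong to different lines.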
